A study of Mus musculus with 12 samples.

Results

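The stage change of homozygous mutant heads was followed from embryonic day 9.0 (E9.0) to E9.5. The libraries were chosen by genotype and stage from the labels, which gave 3 homozygous libraries at each stage, 6 of the 12 libraries of the series. The embryos were of strain C57Bl/6, were given no treatment and carried an alteration of Eftud2 directed at neural crest cells. The mutants were homozygous (Eftud2-/-). The other 6 libraries, 3 at each stage, came from heterozygous (Eftud2+/-) embryos, the study's controls, so every library of the series came from an embryo with at least 1 altered allele and no wild-type embryos were compared. The labels name neither the Cre driver nor the number of embryos per library nor the somite numbers. They also differ on the tissue, which appears as neural crest cells, as cranial nerve ganglia and, in the protocol, as the head. The question here is which gene programmes of the head changed between these stages when Eftud2 was altered in both alleles, and whether the change differed from that of the heterozygous embryos.

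The protein made from Eftud2 is a GTPase that belongs to U5, a small nuclear ribonucleoprotein and core part of the spliceosome that cuts introns out of messenger RNA. Changes in its human counterpart cause mandibulofacial dysostosis with microcephaly, and the series concerns a mouse model in which Mdm2, the ubiquitin ligase that keeps p53 low, is mis-spliced. At these stages the neural tube of the head is patterned and begins to make neurons, while neural crest cells leave its dorsal edge, fill the pharyngeal arches as ectomesenchyme and contribute neurons and glia to the cranial ganglia.

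Levels are given as CPM, a gene's count relative to the library size scaled with TMM factors, 1 value per library in the order of replicates 1 to 3. Changes are log2 fold changes of E9.5 over E9.0 with their standard error. The test was the quasi-likelihood F test of edgeR with Benjamini-Hochberg adjustment over all 14810 genes that passed a filter on low counts, and "rose" and "fell" are used for genes with an adjusted p under 0.05. Each stage had 3 libraries, for which an exact permutation test of a single gene cannot go below a p of 0.1. Nothing in the labels says that the replicates came from separate litters, so the p-values measure the spread between these libraries. In bulk samples such as these, fewer cells of a type and less RNA per cell cannot be told apart. Gene lists were written from general knowledge but with earlier results of these data known, so they are not independent of the data. Members named outside the rule for named genes were chosen as examples after their values were seen. Lists are described by their counts and medians, beside those of all genes.

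The 3 homozygous E9.0 libraries held 13914543 to 16590999 counts and the 3 E9.5 libraries 24165537 to 29418383. The ribosomal RNA precursor gene Rn45s took 13.2%, 6.05% and 16.2% of the counts at E9.0 and 5.01% to 5.90% at E9.5. By the chi-square per gene, homozygous E9.0 replicate 2 differed from the others by 60.3 and 103, against 12.1 between those. Of the heterozygous libraries, E9.0 replicate 1 stood apart, with 37.4% Rn45s against 12.5% to 15.1% in the others of its group, a TMM factor of 0.664 against 0.942 and 0.957, and a chi-square per gene of 213 and 313 against 10.6. These chi-square values include Rn45s and were taken on counts without TMM factors. They are therefore not a sign independent of the share of Rn45s, in either genotype. When libraries were scaled by total counts only, all genes together had a median log2 change of 0.18, against 0.01 with TMM and 0.08 with total counts after Rn45s was left out, so a value with total counts only is to be read against the median of that scaling. Of the variance among the 6 libraries, 68.9% lay on a first principal component that separated the stages. Sex differed between libraries within each stage, in a like way at both stages. At E9.0, Xist was at 0.15, 174 and 453 CPM and the Y-linked genes together were at 178, 109 and 0.0675 CPM. At E9.5, Xist was at 368, 0.0614 and 238 CPM and the Y-linked genes were at 0, 202 and 95.6 CPM. The labels give no batch, so a difference in handling between the stages cannot be told apart from stage.

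The libraries held transcripts of more tissues than neural crest or ganglia. Sox2, a neural tube factor, was at a mean of 181 and 179 CPM at E9.0 and E9.5, and Epcam, an epithelial adhesion protein, at 65.8 and 71.1 CPM. Of the markers that define cranial ganglion neurons, Tlx3 and Prph were near the limit of detection, at means of 0.238 and 0.468 CPM at E9.0 and 0.827 and 0.571 CPM at E9.5. Of the macrophage markers C1qa, Ptprc and Tyrobp, no library of the series held more than 13 counts. The adult globin genes did not pass the filter, and how reads with several matches were counted is not given.

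Eftud2 itself (chr11:102838473-102880985 on the minus strand, mm10) was at 236, 235 and 232 CPM in the homozygous E9.0 libraries and at 226, 221 and 226 CPM at E9.5. The stages did not overlap, but the log2 change of −0.06 ± 0.05 was not past the threshold (edgeR adjusted p 0.391), and it was 0.11 with total counts only, below the 0.18 of all genes. In heterozygous libraries the change was −0.16 ± 0.05 (edgeR adjusted p 0.0279), and the difference between the genotypes, tested as an interaction, was 0.10 ± 0.08 (edgeR adjusted p 0.755). Eftud2 overlaps Gm26668 on the opposite strand, and the strand setting of the counting is not given in the sources used here.

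Across all genes, 5238 of 14810 changed between the stages in homozygous heads, which is 35.4% of those tested. Of these, 2896 (19.6%) rose and 2342 (15.8%) fell, and a list with shares near these is at the level of genes at large. In all, 6622 genes (44.7%) had an unadjusted p under 0.05. The 3 libraries of each stage did not overlap for 3857 genes (26%) that were higher and 3275 (22.1%) that were lower at E9.5. With total counts only 429 genes fell, and 1620 fell when Rn45s was left out as well. Of the single genes described below as lost with total counts only, Gata3 was also lost without Rn45s, while Rax, Ptch1, Egfl7, Phlda3, Svop, Aen, Spry4 and Cyp26c1 were kept there. The rises were the larger changes: 877 genes (5.92%) rose and 313 (2.11%) fell by more than 2-fold. The share of changed genes that rose was 55.3% with TMM, 87.1% with total counts only, 69.2% with total counts without Rn45s and 79.5% in a test against a 1.5-fold change. In heterozygous heads 5216 genes (35.2%) changed, 2840 (19.2%) up and 2376 (16%) down, with 970 (6.55%) rises and 239 (1.61%) falls of more than 2-fold.

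Most of the stage change was common to both genotypes, whose fits share the estimate of spread but no library. In both, 3612 genes changed, 69% of the homozygous and 69.2% of the heterozygous calls, and 3602 of them changed in the same direction. Of the 1209 genes that changed by more than 2-fold in heterozygous heads, 1185 (98%) had the same sign in homozygous heads and 950 (78.6%) changed significantly the same way. For these 1209 genes the homozygous log2 change was at the median 0.892 of the heterozygous one. As a description over genes, which do not vary independently, the changes of the 2 genotypes had a Pearson's r of 0.852 and a Spearman's rho of 0.769. The interaction of stage and genotype, which tests the difference directly, called 10 genes (0.0675%). The change was more positive in homozygous heads for 1 of them (0.00675%) and more negative for 9 (0.0608%), of which 7 (0.0473%) differed by more than 2-fold. An unadjusted interaction p under 0.05 was found for 1274 genes (8.6%), and DESeq2 called 76. Without heterozygous E9.0 replicate 1, 6 genes were called.

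**Figure D1:**
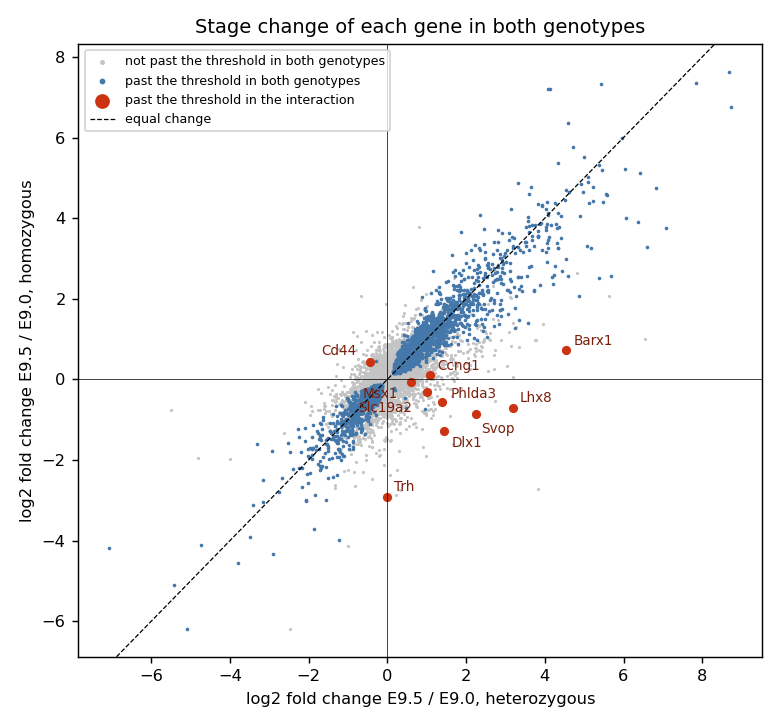
Log2 fold change from E9.0 to E9.5 of each of the 14810 tested genes in heterozygous (horizontal) and homozygous (vertical) libraries, 3 libraries per stage and genotype. Blue points changed in both genotypes and red points are the 10 genes whose change differed between genotypes, of which 9 lie below the dashed line of equal change.

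**Figure D2:**
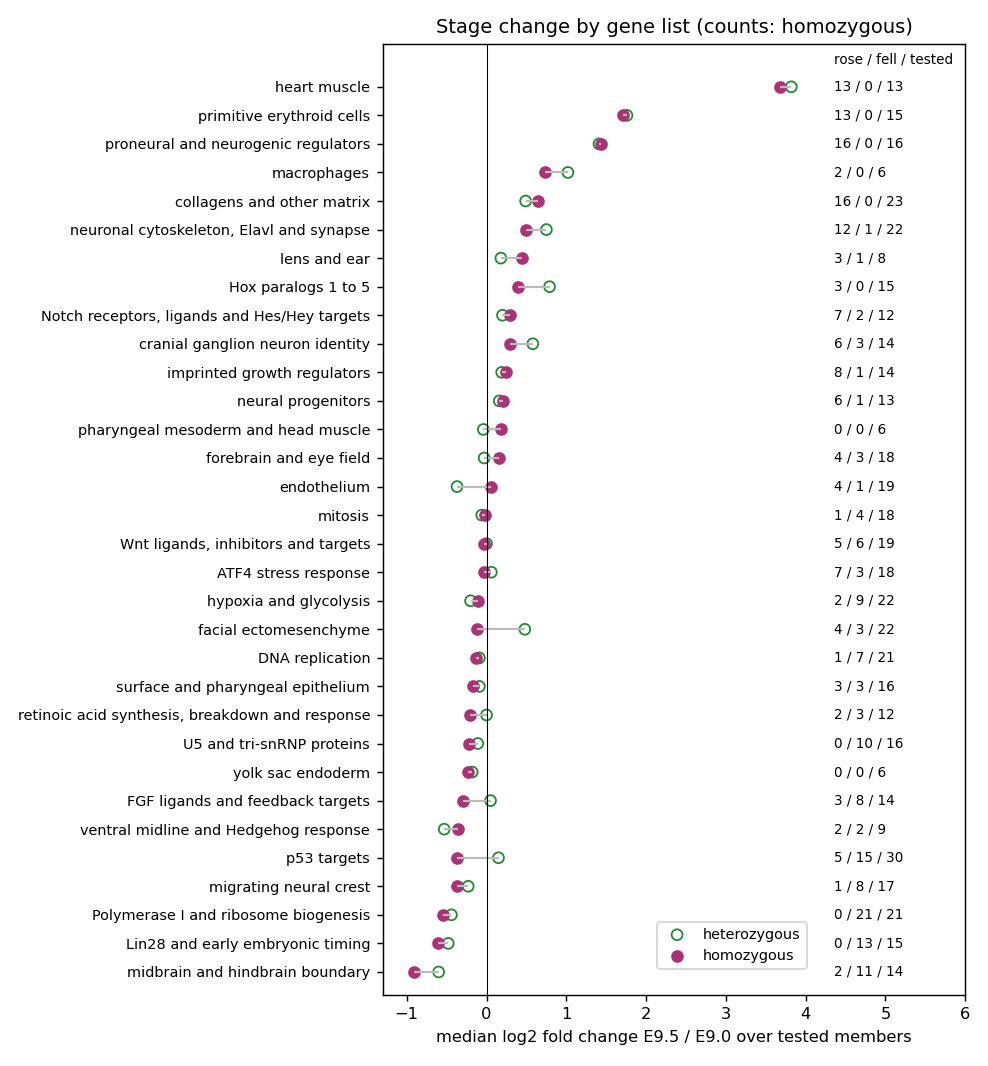
Median log2 fold change from E9.0 to E9.5 over the tested members of each gene list, in homozygous (filled) and heterozygous (open) libraries, for lists with at least 6 tested members. The right column gives, for homozygous heads, how many members rose, how many fell and how many were tested, and facial ectomesenchyme, p53 targets and endothelium are the lists whose medians lie on opposite sides of 0 with the widest gaps between genotypes.

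The neurogenic programme rose in homozygous heads. All 16 tested members of a list of proneural and neurogenic regulators rose, with a median log2 change of 1.43 against 0.01 for all genes, and in heterozygous heads 14 of the 16 rose with a median of 1.41. Ptf1a was not tested because of its low counts. The summed level of the 16 genes went from 110 to 124 CPM at E9.0 to 207 to 221 CPM at E9.5, without overlap. With each homozygous library left out in turn, 14 to 16 members rose, and 11 rose in the test against a 1.5-fold change.

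Proneural basic helix-loop-helix factors commit progenitors to the neuronal fate, and Nhlh1 and Nhlh2 follow them in newborn neurons. Nhlh2 was at 0.451, 0.115 and 0.135 CPM at E9.0 and at 6.07, 4.94 and 7.46 CPM at E9.5, a log2 change of 4.77 ± 0.34 (edgeR adjusted p 6.26e-08) that was 5.57 without E9.0 replicate 1. Nhlh1 was at 0.301, 0.286 and 0.0675 CPM and then at 2.70, 2.64 and 2.93 CPM, a change of 3.62 ± 0.32 (edgeR adjusted p 5.35e-07). For both genes every E9.5 library lay above every E9.0 library. Their promoters are shown because they are the only members of the list with a match to CAGATG, a form of the E-box that proneural factors bind, on either strand of the 250 bases before the start in RefSeq's GRCm38.p6 table, which held 14 of the genes listed. The motif occurred in 14.4% of the 32851 promoter windows of that length and in 11.8% of those of the list. The match, in capitals, lies 203 bases before the start of Nhlh1 (chr1:172057597-172057846, minus strand) and 127 bases before that of Nhlh2 (chr3:102009895-102010144, plus strand). The sequences run 5′ to 3′ on the strand of the gene.
Nhlh1: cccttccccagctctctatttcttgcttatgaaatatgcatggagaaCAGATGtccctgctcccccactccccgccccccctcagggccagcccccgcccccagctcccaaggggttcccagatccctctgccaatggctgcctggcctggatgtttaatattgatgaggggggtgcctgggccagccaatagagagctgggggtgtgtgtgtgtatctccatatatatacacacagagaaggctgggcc
Nhlh2: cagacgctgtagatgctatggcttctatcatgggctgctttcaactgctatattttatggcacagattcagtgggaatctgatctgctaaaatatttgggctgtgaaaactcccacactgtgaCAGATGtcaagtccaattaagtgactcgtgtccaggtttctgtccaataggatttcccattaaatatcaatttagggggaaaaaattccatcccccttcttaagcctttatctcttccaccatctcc

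Neurod1, which drives neuronal differentiation, was at 1.35, 1.03 and 2.09 CPM at E9.0 and at 9.07, 7.40 and 9.83 CPM at E9.5 (2.56 ± 0.20, edgeR adjusted p 1.33e-07). Insm1, a zinc finger factor of dividing neuronal precursors, went from 4.51, 3.09 and 3.44 CPM to 14.4, 14.2 and 12.7 CPM (1.92 ± 0.13, edgeR adjusted p 4.52e-08). Neither gene's stages overlapped. Atoh1, a factor of the rhombic lip, rose by 3.78 ± 0.40, Neurod4 by 3.27 ± 0.29 and Dll3, a Notch ligand of nascent neurons, by 1.88 ± 0.18. Neurog1 rose by 1.43 ± 0.20. The smallest changes of the list were those of Dll1 (0.30 ± 0.10, edgeR adjusted p 0.0324), Ebf2 (0.31 ± 0.10) and Olig2 (0.59 ± 0.15), of which Ebf2 and Olig2 had changes of −0.09 and −0.06 in heterozygous heads. The interaction of these 2 genes was not past the threshold (edgeR adjusted p 0.433 for Ebf2 and 0.348 for Olig2).

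Genes of the neuronal cytoskeleton, RNA-binding Elavl proteins and synapse rose less evenly. Of 22 members, 12 rose and 1 fell, with a median of 0.49, while 16 rose and 1 fell in heterozygous heads with a median of 0.75. Dcx, a microtubule protein of migrating neurons, was at 1.65, 1.89 and 1.28 CPM at E9.0 and at 12.4, 13.8 and 15.9 CPM at E9.5 (3.11 ± 0.22, edgeR adjusted p 7.11e-08). Nefm, a neurofilament subunit, went from 10.2, 9.68 and 12.2 CPM to 34.1, 35.0 and 38.0 CPM (1.74 ± 0.11, edgeR adjusted p 1.70e-08). These E9.5 libraries all lay above those of E9.0. Elavl3 rose by 2.24 ± 0.19, Elavl4 by 1.80 ± 0.14 and Tubb3, the neuronal beta tubulin, by 1.01 ± 0.08. Crmp1, which relays semaphorin signals to the cytoskeleton, was the member that fell (−0.43 ± 0.06, edgeR adjusted p 5.88e-05). Stmn3, a microtubule-destabilising protein, was at 3.46, 3.32 and 3.65 CPM and then at 3.95, 3.50 and 4.20 CPM, with overlapping stages and a change of 0.16 ± 0.18 (edgeR adjusted p 0.518). It rose by 1.21 in heterozygous heads (edgeR adjusted p 5.75e-05), and the difference between genotypes was not past the threshold (edgeR adjusted p 0.18).

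Cranial ganglion genes moved in both directions, with 6 of 14 tested members higher, 3 lower and a median of 0.29 (0.58 in heterozygous heads). The homozygous median was 0.15 to 0.36 when each homozygous library was left out. Pou4f2 and Prrxl1 did not pass the filter. The neurotrophin receptor Ntrk2 was at 9.70, 8.71 and 10.5 CPM at E9.0 and at 17.9, 19.4 and 21 CPM at E9.5 (1.01 ± 0.11, edgeR adjusted p 5.16e-06). Tlx3, Phox2a and Isl1, transcription factors of sensory, visceral and motor neurons, rose by 1.74 ± 0.38, 1 ± 0.26 and 0.42 ± 0.10. Ret, the receptor of glial cell line-derived neurotrophic factor, was at 24.2, 23.9 and 22.8 CPM and then at 7.62, 7.22 and 4.31 CPM, a fall to below every E9.0 library (−1.88 ± 0.20, edgeR adjusted p 8.89e-06). Ntrk3 fell by 0.70 and Six4, a placode factor, fell by 0.23. Pou4f1, which specifies somatosensory neurons, was at 6.09, 5.84 and 6.08 CPM and then at 5.80, 5.31 and 7.13 CPM, with overlapping stages (0.01 ± 0.20, edgeR adjusted p 0.964). It rose by 1.17 ± 0.19 in heterozygous heads, from 4.84, 5.26 and 5.38 CPM to 8.81, 15.8 and 10.5 CPM, and the interaction of −1.16 ± 0.27 was not past the threshold (edgeR adjusted p 0.18).

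Among 13 neural progenitor genes, 6 rose and 1 fell, with a median of 0.21 (0.16 in heterozygous heads). Vim, an intermediate filament of radial cells and mesenchyme, went from 251, 216 and 210 CPM to 548, 517 and 555 CPM (1.26 ± 0.09, edgeR adjusted p 4.41e-08). Fabp7, a fatty acid carrier of radial glia, went from 5.41, 3.95 and 3.72 CPM to 15.5, 14.8 and 16.8 CPM (1.86 ± 0.16, edgeR adjusted p 3.55e-07). Both stood higher in every E9.5 library. Zic1, a dorsal neural factor, rose by 1.16 ± 0.16 and Nes, the neural intermediate filament, by 0.39 ± 0.07. Pax6, a patterning factor of eye and neural tube, fell by 0.27 (edgeR adjusted p 0.0215), and 0 members of the list fell with total counts only. The general progenitor factors Sox1, Sox2 and Sox3 had changes of −0.10 ± 0.15, −0.02 ± 0.07 and −0.05 ± 0.10 that did not pass the threshold. In the Notch pathway, through which neighbouring progenitors keep each other from differentiating, 7 of 12 genes rose and 2 fell, with a median of 0.29. Nrarp, a feedback target, went from 24.7, 22.5 and 22.2 CPM to 51.8, 51.8 and 50.4 CPM without overlap (1.15 ± 0.11, edgeR adjusted p 1.85e-06). The receptor Notch1 rose by 0.73 ± 0.09, the ligand Jag2 by 0.86 ± 0.14 and the target Hey1 by 0.56 ± 0.08, while Hes1 (−0.28 ± 0.07) and Jag1 (−0.30 ± 0.09) fell with TMM but not with total counts only.

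The gene set of the midbrain and hindbrain boundary went down. Of 14 members 11 fell and 2 rose, with a median of −0.91, and 8 fell with total counts only, where the median was −0.75. In heterozygous heads 7 fell and 3 rose, with a median of −0.60. The summed level was 170 to 196 CPM at E9.0 and 94.8 to 116 CPM at E9.5. This boundary, called the isthmus, is an organiser that secretes Fgf8 and Wnt1 and keeps the engrailed and Pax genes of the midbrain and cerebellum active.

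En1 was at 6.24, 10.9 and 11.1 CPM at E9.0 and at 1.01, 0.553 and 0.188 CPM at E9.5, a change of −3.99 ± 0.52 (edgeR adjusted p 0.000254), or −4.60 without E9.5 replicate 1. In heterozygous heads it went from 22.7, 16.9 and 22.3 CPM to 5.52, 13.2 and 7.64 CPM (−1.22 ± 0.34, edgeR adjusted p 0.0198). Both genotypes fell without overlap, and the larger homozygous change was not past the threshold of the interaction (−2.77 ± 0.65, edgeR adjusted p 0.247). En2 fell from 7.89, 12.5 and 7.23 CPM to 1.05, 1.81 and 1.28 CPM (−2.74 ± 0.44, edgeR adjusted p 0.001), with a heterozygous change of 0.32 and an interaction adjusted p of 0.133 with edgeR. Pax5 fell by 2.64, Pax8 by 1.59, Pax2 by 1.43 and Wnt1 by 1.05. Gbx2, the factor of the hindbrain side, was at 12.6, 14.4 and 14.9 CPM and then at 8.2, 7.19 and 7.05 CPM (−0.90 ± 0.13, edgeR adjusted p 5.82e-05), and Otx2, that of the midbrain side, fell by 0.54. Fgf8 fell by 0.39 (edgeR adjusted p 0.0434), whereas Fgf17 and Fgf18, ligands of the same region, rose by 0.83 ± 0.28 and 0.97 ± 0.23. Cnpy1, a modulator of Fgf signalling at the isthmus, had at most 0.203 CPM in any homozygous library (−0.92 ± 1.16, edgeR adjusted p 0.571) and rose by 1.59 ± 0.45 in heterozygous heads (interaction edgeR adjusted p 0.63). Pax8 overlaps Gm13415 and Gbx2 overlaps D130058E05Rik on the opposite strand.

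Of 18 forebrain and eye field genes 4 rose and 3 fell, near the 19.6% and 15.8% of all tested genes, with a median of 0.15, which was −0.02 without homozygous E9.5 replicate 3. With each homozygous library left out in turn, 2 to 5 members rose and 3 to 5 fell. Rax, the eye field factor, was at 10, 10.5 and 13.8 CPM and then at 8.2, 6.05 and 7.43 CPM (−0.67 ± 0.15, edgeR adjusted p 0.00278), a call lost with total counts only. Six3 fell by 0.72 and Hesx1, a factor of the anterior neural plate and pituitary, by 1.72, while Emx1 and Fezf2 of the telencephalon rose by 0.76 ± 0.21 and 0.99 ± 0.32. Vax2, a ventral eye gene, had 1, 0 and 2 counts in the E9.0 libraries and was at 0.877, 0.676 and 1.16 CPM at E9.5 (edgeR adjusted p 0.000197). Among 8 tested lens and ear genes 3 rose. Cryab, a small heat shock protein of lens and also of heart and muscle, went from 2.26, 0.802 and 1.62 CPM to 14.3, 18.7 and 15.4 CPM (3.42 ± 0.23, edgeR adjusted p 5.73e-08). Prox1 rose by 0.57 ± 0.12 and Oc90, an otoconial protein, by 2.46 ± 0.52, on 2, 1 and 4 counts at E9.0. Without 1 homozygous library the change of Oc90 was 2.01 to 3.09. Gata3 fell by 0.41, a call that was lost with total counts only and without homozygous E9.0 replicate 1 or 3 or E9.5 replicate 1 or 3. Foxe3, a lens factor, was at 0.27 to 0.614 CPM in all 6 libraries (0.32 ± 0.42, edgeR adjusted p 0.587) and rose by 1.15 in heterozygous heads (interaction edgeR adjusted p 0.72). The crystallins Cryaa and Cryba1 were below the filter.

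Egr2, the Krox20 factor of hindbrain segments, was the largest fall among genes with at least 100 counts on average, from 12, 12.7 and 17.4 CPM to 1.72, 2.76 and 1.54 CPM (−2.79 ± 0.39, edgeR adjusted p 0.000252). It fell by 2.75 in heterozygous heads. Of 15 tested Hox genes of paralog groups 1 to 5, which set position along the hindbrain, 3 rose and none fell, which for the rises is near the 19.6% of all tested genes. The 3 were Hoxb5 (2.14 ± 0.55), Hoxc5 (2.54 ± 0.76), at 2.90 and 3.46 without E9.0 replicate 1, and Hoxc4 (1.30 ± 0.43). Hoxc4 was at 1.5, 1.55 and 0.473 CPM at E9.0 and at 3.30, 3.47 and 1.95 CPM at E9.5, so the stages did not overlap. The calls of Hoxc4 and Hoxc5 were lost in 3 of 6 fits that left out a homozygous library, with an edgeR adjusted p up to 0.112 and 0.0943. Only 1 of the 15 rose without E9.0 replicate 3 or without E9.5 replicate 1, where 1 and 2 members fell. Hoxa5 had a change of 1.23 ± 0.64 (edgeR adjusted p 0.16) against 2.38 in heterozygous heads (interaction edgeR adjusted p 0.772). Of 24 genes of paralog groups 6 to 13 only Hoxb6 and Hoxb8 were tested and neither was past the threshold in homozygous heads. Hoxb6 was at 0, 0.172 and 0.0675 CPM and then at 0.877, 0.154 and 0.113 CPM, with overlapping stages (edgeR adjusted p 0.118). In heterozygous heads, with 1 count in all at E9.0, it was at 1.43, 0.968 and 1.03 CPM at E9.5 (edgeR adjusted p 0.000597), and the interaction was not past the threshold (edgeR adjusted p 0.656). In the ventral midline list, Foxj1, a factor of motile cilia, rose by 1.53 ± 0.25 and Hhip by 0.49 ± 0.13, while T, the notochord factor, and Ptch1, the Hedgehog receptor and target, fell by 1.78 and 0.48. The change of T was −2.46 without E9.5 replicate 1, and that of Ptch1 was not past the threshold with total counts only. Foxa2 (−0.50 ± 0.19) and Nkx6-1 (−0.36 ± 0.24) fell in heterozygous heads by 1.04 and 1.30 but did not pass the threshold here, and neither did their interactions (edgeR adjusted p 0.612 and 0.484). Shh had a wide error (0.08 ± 0.41) and was not past the threshold.

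Of 17 markers of migrating neural crest 8 fell, 1 rose and 8 were not past the threshold, with a median of −0.37 against −0.23 in heterozygous heads, where 8 fell and 2 rose. With total counts only, 5 fell and the median was −0.19. The summed level of the list was 927 to 1000 CPM at E9.0 and 593 to 722 CPM at E9.5, without overlap.

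Sox10, the factor that maintains crest and glial precursors, was at 19.5, 24.5 and 27.2 CPM and then at 4.96, 4.08 and 2.89 CPM (−2.57 ± 0.21, edgeR adjusted p 1.14e-06). Foxd3, an early crest factor, went from 7.52, 9.28 and 9.39 CPM to 1.08, 0.583 and 0.300 CPM (−3.71 ± 0.32, edgeR adjusted p 7.70e-07). For both, every E9.5 library lay below every E9.0 library. In heterozygous heads Sox10 fell by 2.01 and Foxd3 by 1.87, and the interactions were not past the threshold (edgeR adjusted p 0.612 and 0.18). Crabp1, a retinoic acid binding protein of crest and hindbrain, fell by 0.85. Sox9, Pax3 and Tfap2a fell by 0.45, 0.44 and 0.62. Ednrb, the receptor of endothelin 3, was the member that rose, from 27.5, 24.3 and 17.2 CPM to 44.2, 43.6 and 38.0 CPM (0.87 ± 0.15, edgeR adjusted p 0.000387). Twist1, Snai2 and Sox5 did not pass the threshold. Sox8 was at 3.68, 2.41 and 3.38 CPM and then at 4.55, 4.82 and 4.09 CPM (0.53 ± 0.27, edgeR adjusted p 0.143), with a heterozygous rise of 1.01 and an interaction adjusted p of 0.749 with edgeR.

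Facial ectomesenchyme was the programme with the most members whose stage change differed between genotypes. Of 22 tested genes 4 rose and 3 fell in homozygous heads, near the shares of all genes, with a median of −0.12, whereas 10 rose and 1 fell in heterozygous heads, with a median of 0.48. The homozygous median was 0.05 with total counts only, which is below the 0.18 of all genes under that scaling. For 20 of the 22 genes (90.9%) the homozygous change was below the heterozygous one, against 46.8% of all tested genes, and 4 of the 10 interaction genes belong to the list (Dlx1, Lhx8, Barx1 and Msx1). The summed level went from 223 to 240 CPM to 262 to 271 CPM in homozygous heads and from 226 to 253 CPM to 420, 271 and 408 CPM in heterozygous ones, where E9.5 replicate 2 stood at the homozygous level. The number of homozygous members that rose was 2 without E9.0 replicate 2 or 3 or without E9.5 replicate 2 or 3, and the number that fell was 5 without E9.0 replicate 2.

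Dlx1, a homeobox gene of the arches and the ventral forebrain (chr2:71528113-71533981, plus strand, mm10), was at 2.48, 2 and 2.23 CPM in the homozygous E9.0 libraries and at 1.15, 0.921 and 0.675 CPM at E9.5 (−1.27 ± 0.26, edgeR adjusted p 0.00109). In heterozygous heads it was at 3.08, 3.33 and 2.32 CPM and then at 9.18, 6.25 and 8.28 CPM (1.45 ± 0.19, edgeR adjusted p 3.07e-05). The gene thus fell in 1 genotype and rose in the other, without overlap between stages in either, and the interaction was −2.72 ± 0.32 (edgeR adjusted p 0.00349). That call was kept in all 12 fits that left out 1 library. Dlx1 overlaps Dlx1as on the opposite strand. Its neighbour Dlx2 fell by 1.10 and Dlx6 by 0.82 in homozygous heads, with heterozygous changes of 0.31 and 0.12 and interactions that were not past the threshold (edgeR adjusted p 0.12 and 0.399).

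Barx1, a factor of the jaw and tooth mesenchyme (chr13:48662998-48666507, plus strand), was at 1.05, 0.745 and 1.62 CPM and then at 1.72, 2.15 and 1.73 CPM in homozygous heads, a change of 0.73 ± 0.40 (edgeR adjusted p 0.171). In heterozygous heads it went from 0.587, 0.858 and 0.387 CPM to 17.8, 8.36 and 16.3 CPM (4.55 ± 0.36). The interaction was −3.82 ± 0.60 (edgeR adjusted p 0.0301), and it was kept in 3 of 12 fits without 1 library, at −4.18 to −3.47, with an adjusted p up to 0.238. Lhx8, a factor of the oral mesenchyme (chr3:154306294-154330659, minus strand), was at 0.188 to 0.608 CPM in all 6 homozygous libraries and rose in heterozygous heads from 0.220, 0.322 and 0.215 CPM to 2.71, 2.14 and 2.13 CPM. Its interaction was −3.88 ± 0.55 (edgeR adjusted p 0.0181), kept in 10 of the 12 fits and lost without replicate 3 of either homozygous stage. Msx1, a target of Bmp signals in the arches (chr5:37820485-37824583, minus strand), was at 35.5, 33.2 and 33.8 CPM and then at 31.8, 32.3 and 33.5 CPM. In heterozygous heads it rose from 31.0, 30.4 and 33.3 CPM to 50.8, 44.5 and 48.3 CPM, and the interaction was −0.67 ± 0.10 (edgeR adjusted p 0.0198, kept in 7 of 12 fits). The small homozygous change of Msx1, −0.07 ± 0.07 with TMM, was 0.10 with total counts only, again below the 0.18 of all genes.

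The members of the list that rose in homozygous heads included Hand1, Hand2 and Pitx1. Hand2, a factor of the lower jaw and also of the heart, went from 12.6, 10.4 and 12.5 CPM to 22.8, 25.6 and 26.3 CPM (1.08 ± 0.22, edgeR adjusted p 0.00217), and Hand1, of the distal arches and likewise the heart, from 2.26, 3.04 and 3.11 CPM to 5.77, 6.91 and 6.56 CPM (1.18 ± 0.16, edgeR adjusted p 4.02e-05). Both stood above all E9.0 libraries, in the same libraries in which heart muscle genes were high, and the part of heart tissue in these rises was not tested. Pax9 was at 6.39, 6.70 and 6.55 CPM and then at 5.53, 4.97 and 4.16 CPM (−0.42 ± 0.18, edgeR adjusted p 0.0796) and fell by 1.08 in heterozygous heads (interaction edgeR adjusted p 0.503).

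**Figure D3:**
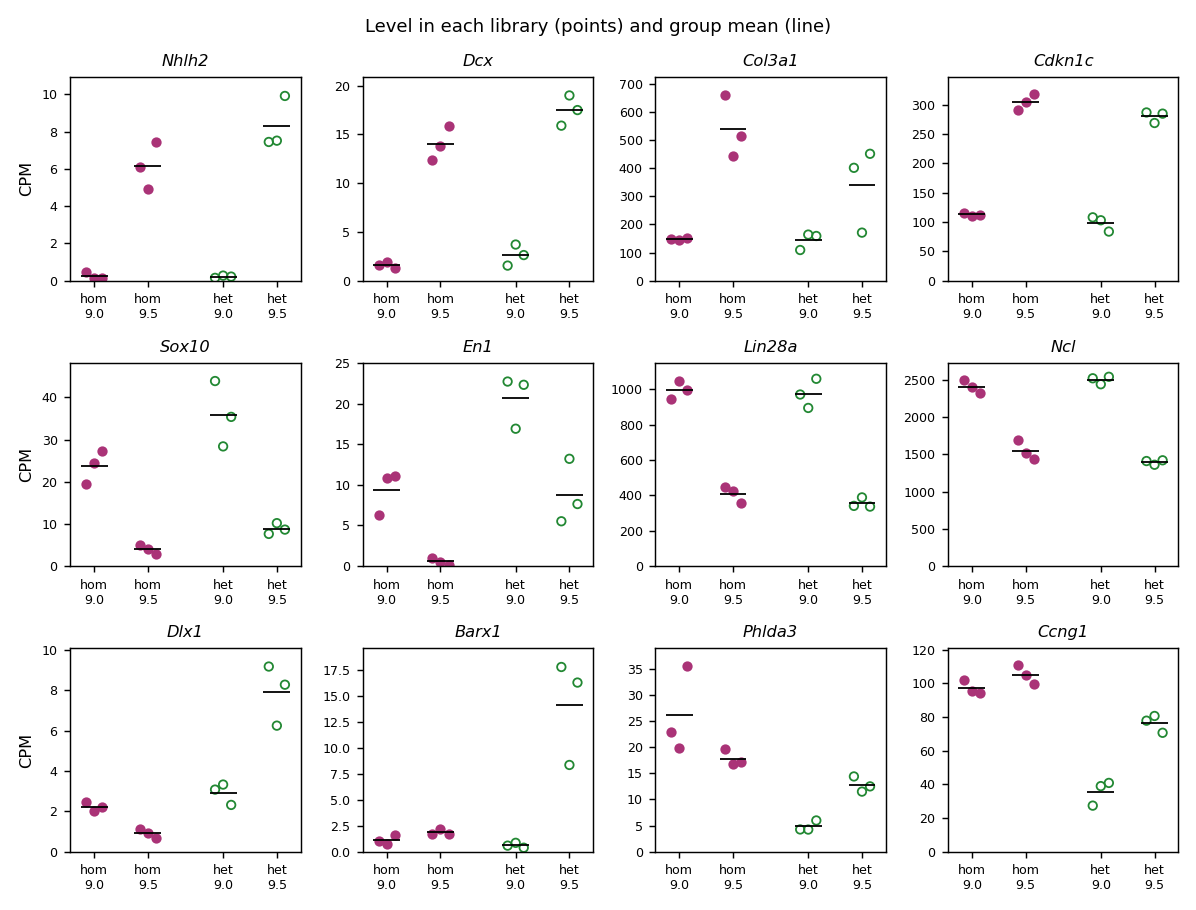
CPM of 12 genes in each library, with homozygous libraries filled and heterozygous ones open, and the group mean as a line. Nhlh2, Dcx, Col3a1 and Cdkn1c rose and Sox10, En1, Lin28a and Ncl fell in both genotypes, while Dlx1, Barx1, Phlda3 and Ccng1 rose in heterozygous heads and had a lower homozygous change.

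Matrix genes rose. Of 23 collagen and other matrix genes 16 rose and none fell, with a median of 0.64 (0.49 in heterozygous heads, where 11 rose), and the summed level went from 2280 to 2600 CPM to 3420 to 3840 CPM without overlap. Leaving out each homozygous library gave 14 to 16 rises and the test against a 1.5-fold change gave 5. Col3a1, a fibrillar collagen of loose connective tissue, was at 149, 143 and 152 CPM and then at 663, 444 and 514 CPM (1.87 ± 0.35, edgeR adjusted p 0.00359). Col2a1, the cartilage and notochord collagen, went from 268, 260 and 293 CPM to 456, 450 and 454 CPM (0.73 ± 0.06, edgeR adjusted p 3.55e-07). All E9.5 libraries of both genes were above those of E9.0. Col6a3 rose by 2.29 ± 0.34, Col1a1 by 1.53 ± 0.31, Lox, which cross-links collagen, by 1.37 ± 0.31, and Col11a1 by 0.86 ± 0.10. Fn1, fibronectin, did not pass the threshold (0.03 ± 0.13).

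Of 16 genes of surface and pharyngeal epithelium 3 rose and 3 fell, a share near the 35.4% of all tested genes that changed, and the median was −0.17, or 0.01 with total counts only. Trp63, the factor of stratified epithelium, went from 5.49, 4.81 and 4.46 CPM to 14.1, 22.4 and 20.6 CPM (1.96 ± 0.17, edgeR adjusted p 8.18e-07), and its target Perp rose by 1.57 ± 0.14. Krt14, a basal keratin, rose by 1.05 ± 0.31, a call lost without homozygous E9.0 replicate 1 (edgeR adjusted p 0.0589). Nkx2-3, Krt5 and Krt18 fell by 1.01, 0.83 and 0.25, and without E9.5 replicate 2, 7 members of the list fell. Among 19 endothelial genes 4 rose and 1 fell in homozygous heads, for the rises again near the 19.6% of all genes, with a median of 0.06, while 1 rose and 8 fell in heterozygous heads, with a median of −0.37. For 18 of the 19 the homozygous change was above the heterozygous one, and no interaction passed the threshold. In heterozygous heads the summed level of the list was 400 to 437 CPM at E9.0 and 375, 264 and 389 CPM at E9.5, with replicate 2 the lowest. Pecam1, an adhesion protein of vessel walls, was at 18.0, 18.1 and 14.3 CPM and then at 25.5, 23.4 and 26 CPM (0.57 ± 0.16, edgeR adjusted p 0.0126, lost without homozygous E9.0 replicate 3). Robo4, Eng and Tie1 rose by 1.03 ± 0.28, 0.44 ± 0.13 and 0.34 ± 0.13, and Egfl7 fell by 0.46, a call that was lost with total counts only. The call of Eng was lost without E9.0 replicate 2 or E9.5 replicate 3. Without E9.0 replicate 2 or 3 or E9.5 replicate 3, 2 endothelial genes rose, and the median was −0.04 without E9.5 replicate 1. Of 6 tested genes of pharyngeal mesoderm and head muscle none changed. Tbx1 was at 27.3, 23.0 and 27.5 CPM and then at 23.5, 23.9 and 24.1 CPM (−0.12 ± 0.12, edgeR adjusted p 0.486), with a heterozygous fall of 0.85 and an interaction adjusted p of 0.195 with edgeR. Myog, a factor of differentiating muscle, went from 1.13, 0.229 and 0.0675 CPM to 3.74, 1.17 and 0.413 CPM with overlapping stages.

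Heart muscle genes rose. All 13 tested members of the list rose in both genotypes, with medians of 3.68 in homozygous and 3.82 in heterozygous heads, and their summed level went from 227 to 789 CPM to 4750 to 7050 CPM in homozygous libraries. Of the genes whose stages did not overlap and whose mean reached 100 counts, the 12 with the largest rises were Nppa, Myl2, Pln, Tnni3, Hspb7, Smpx, Nppb, Myl3, Csrp3, Myl1, Hspb1 and Pgam2, with log2 changes from 4.71 to 7.63. Of these, Nppa, Myl2 and Myl3 belong to the heart list. Myl2, the ventricular myosin light chain, was at 1.28, 0.516 and 0.878 CPM and then at 113, 161 and 152 CPM (7.36 ± 0.27, edgeR adjusted p 1.70e-08). Nppa, the atrial natriuretic peptide, was at 1.05, 0 and 0 CPM at E9.0 and at 47.2, 75.5 and 63.6 CPM at E9.5 (7.63 ± 0.47, edgeR adjusted p 1.78e-06). All 14 of its E9.0 counts were in replicate 1, and the fitted change ranged from 6.95 to 13.58 without 1 library, with the highest value without that replicate, where E9.0 held no count and the fitted value is no bound. Without the same replicate the changes of Hspb7, Csrp3 and Myl1 were 6.56, 6.02 and 6.15 against 5.38, 5.01 and 4.9 with it, and the E9.0 counts of Nppb were 10, 2 and 1, too few for a fold without it. No E9.5 library of these genes came near the E9.0 range. Among the E9.0 libraries replicate 1 was the highest for most of the list, with Myh6 at 88.1, 16.7 and 16.3 CPM and Ttn at 398, 92.1 and 121 CPM. The labels do not say whether the heart or parts of it were dissected with the head. Without Rn45s and all genes of the heart, erythroid and platelet lists, 5239 genes changed. Of the calls made with them, 99.2% were among these. That fit left the counts of all other genes as they were and kept other genes that heart tissue expresses. The overlap therefore does not measure the part of heart or blood tissue in the remaining calls. The promoter of Nppa (chr4:148000472-148000721, plus strand, GRCm38.p6, RefSeq) is shown because Nppa is among these rises. It holds a TATA motif, TATAAA, in capitals, 9 bases before the annotated start, a motif found on either strand in 12.4% of all windows and in 11.8% of those of the heart list (Myl2 and Nppa). Nppa overlaps Gm13054 on the opposite strand.
Nppa: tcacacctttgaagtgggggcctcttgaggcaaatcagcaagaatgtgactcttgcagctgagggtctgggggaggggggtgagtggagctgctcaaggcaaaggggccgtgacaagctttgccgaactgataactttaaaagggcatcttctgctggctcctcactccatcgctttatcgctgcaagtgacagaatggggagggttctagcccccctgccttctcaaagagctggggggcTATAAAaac

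Of 15 tested genes of primitive erythroid cells, the first red cells of the embryo, 13 rose and none fell, with a median of 1.71 (1.76 in heterozygous heads). Hbb-y, an embryonic beta globin, was at 131, 111 and 273 CPM and then at 1680, 1150 and 2150 CPM (3.27 ± 0.40, edgeR adjusted p 0.000344). Alas2, the first enzyme of haem synthesis in red cells, went from 6.92, 6.42 and 14.0 CPM to 38.9, 28.2 and 51.2 CPM (2.12 ± 0.36, edgeR adjusted p 0.00189). Replicate 3 was the highest library of both stages for these genes, and the stages did not overlap. The summed level of the list went from 586 to 1270 CPM to 2900 to 5330 CPM. The adult globins Hba-a1, Hba-a2, Hbb-bs and Hbb-bt were below the filter. How reads with several matches were counted is not given, so these low counts do not show that the genes were silent. The 15 listed genes found in the promoter table had 16 windows, of which 6 (37.5%) held AGATAA, the motif of the GATA factors that drive red cell genes, on either strand, against 9.99% of all windows. Of the 6 genes (Alas2, Epb42, Epor, Hbb-bs, Tal1 and Trim10), 2 that rose are shown. The match is on the reverse strand in both and is printed in capitals as TTATCT, 86 bases before the start of Alas2 (chrX:150547167-150547416, plus strand, GRCm38.p6) and 163 bases before that of Trim10 (chr17:36869324-36869573, plus strand).
Alas2: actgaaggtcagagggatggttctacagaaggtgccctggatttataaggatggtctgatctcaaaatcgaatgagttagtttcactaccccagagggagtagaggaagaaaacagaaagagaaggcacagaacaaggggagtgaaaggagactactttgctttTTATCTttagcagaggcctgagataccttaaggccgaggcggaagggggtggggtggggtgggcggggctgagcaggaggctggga
Trim10: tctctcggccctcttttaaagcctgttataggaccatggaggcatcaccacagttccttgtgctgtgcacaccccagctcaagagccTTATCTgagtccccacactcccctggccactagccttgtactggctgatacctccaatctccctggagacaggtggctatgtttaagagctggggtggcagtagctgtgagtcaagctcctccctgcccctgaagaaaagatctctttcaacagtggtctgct

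Pf4, a platelet chemokine, went from 0.376, 0.0573 and 0.135 CPM to 4.86, 3.10 and 5.21 CPM (4.59 ± 0.45, edgeR adjusted p 1.58e-06), on 5, 1 and 2 counts at E9.0. Its change was 4.11 to 5.48 over the fits without 1 homozygous library. Ppbp, with 1, 0 and 0 counts at E9.0, was at 0.674, 0.553 and 0.975 CPM at E9.5. Itga2b (0.41 ± 0.17) and Gp1bb (0.47 ± 0.40) did not pass the threshold, although Gp1bb rose by 1.16 in heterozygous heads (interaction edgeR adjusted p 0.772). Of 16 macrophage genes 6 were tested. Lyz2, with 0, 1 and 3 counts at E9.0, rose by 3.31 ± 0.64 and Csf1r by 1.56 ± 0.42. The change of Lyz2 ranged from 2.84 to 4.62 when 1 homozygous library was left out. Cx3cr1 was at 0.0752, 0.229 and 0.0675 CPM and then at 0.202, 0.614 and 0.675 CPM (edgeR adjusted p 0.0988). The other 3 were not past the threshold, and their changes were negative. They were −1.39 ± 0.55 for Fcer1g, without overlap between stages (edgeR adjusted p 0.0592), −0.51 for Cd68 and −0.11 for Mrc1. None of 6 tested yolk sac endoderm genes changed, and their summed level was 8.31 to 10.5 CPM at E9.0 and 8.44 to 9.95 CPM at E9.5. Epor, the erythropoietin receptor, was not past the threshold (1.11 ± 0.41, edgeR adjusted p 0.0527), nor was Trf, the gene of transferrin (0.62 ± 0.38, interaction edgeR adjusted p 0.86). In heterozygous heads Trf was at 2.15 to 2.84 CPM and then at 8.99, 2.64 and 4.37 CPM, with overlapping stages and replicate 1 the highest (1.07 ± 0.36, edgeR adjusted p 0.0369). That library also held 680 counts of Afp, 81 of Fgb and 61 of Ttr, genes of yolk sac endoderm with at most 4 counts in the other 2 libraries of its group, and their part in the change of Trf was not tested.

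**Figure D4:**
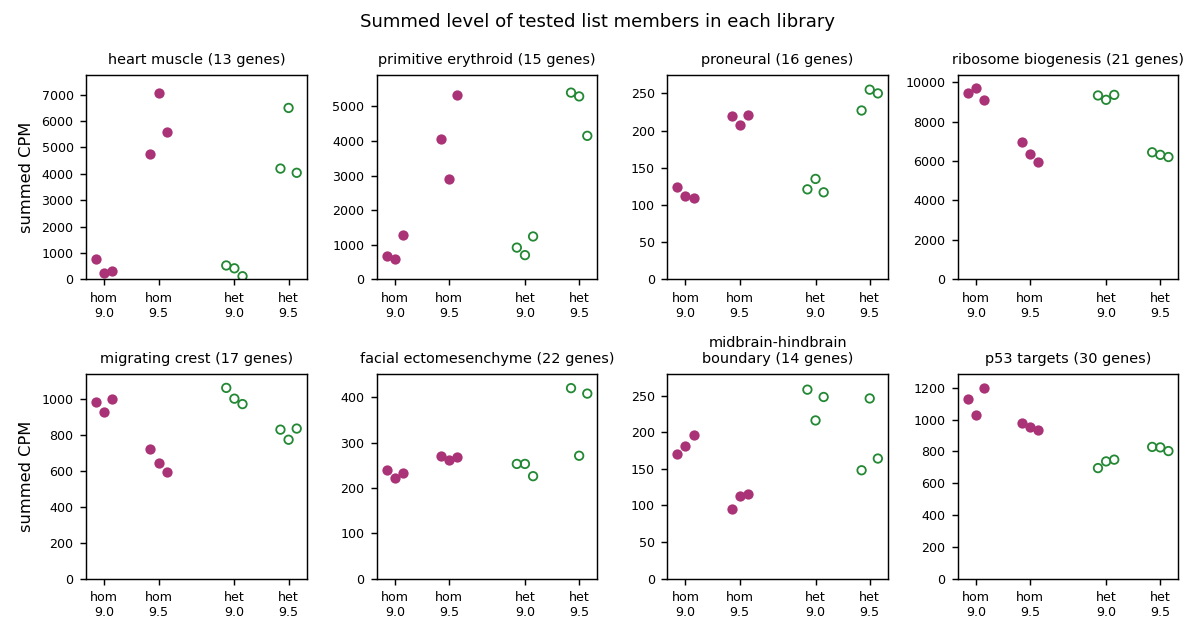
Summed CPM of the tested members of 8 gene lists in each library, with homozygous libraries filled and heterozygous ones open. The stages do not overlap for any of the 8 lists in homozygous heads, where heart muscle, erythroid, proneural and ectomesenchyme sums were higher and ribosome biogenesis, crest, boundary and p53 target sums were lower at E9.5.

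Genes that time early embryonic growth fell. Lin28a, an RNA-binding protein that blocks the maturation of let-7, was at 948, 1050 and 995 CPM and then at 446, 425 and 358 CPM (−1.28 ± 0.09, edgeR adjusted p 4.41e-08). Of 15 tested genes of this group 13 fell and none rose, with a median of −0.61 (−0.48 in heterozygous heads, where 13 fell), and with total counts only 8 fell and the median was −0.44. The summed level was 4610 to 4800 CPM and then 3010 to 3310 CPM. Nr6a1, a nuclear receptor of the early embryo, fell by 1.37, the DNA methyltransferase Dnmt3b by 0.99, Trim71 by 0.98, Mycn by 0.82 and Sall4 by 0.70. Pou5f1, the pluripotency factor, was at 0.376, 1.15 and 2.03 CPM at E9.0 and had 1, 0 and 0 counts at E9.5. The change of Hmga2 (0.14 ± 0.06) did not pass the threshold, while it fell by 0.20 in heterozygous heads (interaction edgeR adjusted p 0.18).

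Imprinted genes of growth rose in 8 of 14 tested members and fell in 1, with a median of 0.24. Cdkn1c, an inhibitor of the cell cycle, went from 116, 111 and 112 CPM to 292, 305 and 319 CPM (1.43 ± 0.08, edgeR adjusted p 4.76e-09). Plagl1, a zinc finger factor, went from 28.4, 17.5 and 18.2 CPM to 78.3, 80.1 and 89.1 CPM (1.96 ± 0.22, edgeR adjusted p 7.53e-05). Every E9.5 library of both was above all those of E9.0. Dlk1 rose by 1.46 ± 0.21, Igf2r by 0.84 ± 0.09, Igf2 by 0.44 ± 0.11 and H19 by 0.28 ± 0.09, and Magel2 fell by 1.02.

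All 21 genes of RNA polymerase I and ribosome biogenesis fell, with a median of −0.54, and 20 of the 21 fell in heterozygous heads with a median of −0.44. Their summed level was 9070 to 9700 CPM at E9.0 and 5970 to 6980 CPM at E9.5. With total counts only 7 of them fell and the median was −0.38, and in the test against a 1.5-fold change 0 fell, where the smallest and largest falls of the list were −0.33 (Polr1a) and −0.70 (Rrp9). Ncl, nucleolin, was at 2500, 2400 and 2320 CPM and then at 1690, 1520 and 1440 CPM (−0.64 ± 0.06, edgeR adjusted p 9.13e-07). Fbl, the methyltransferase fibrillarin, went from 211, 205 and 243 CPM to 143, 135 and 139 CPM (−0.66 ± 0.07, edgeR adjusted p 3.54e-06). Neither gene's stages overlapped. Tcof1, whose human counterpart is altered in Treacher Collins syndrome, another mandibulofacial dysostosis, fell by 0.53, and the polymerase subunits Polr1a and Polr1b fell by 0.33 and 0.62. Snora78, a small nucleolar RNA that guides pseudouridylation, fell by 1.83, or by 1.05 with an offset for GC content and length. It lies within Snhg9 and overlaps Rps2, so its reads may belong to either.

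Of 18 mitotic genes 4 fell and 1 rose, with a median of −0.02, and of 21 replication genes 7 fell and 1 rose, with a median of −0.13. Of all tested genes 15.8% fell and 19.6% rose. With total counts only, 0 of either list fell and the medians were 0.15 and 0.04. Plk1 was at 137, 142 and 155 CPM and then at 119, 116 and 118 CPM (−0.30 ± 0.07, edgeR adjusted p 0.00241), and Rrm1, a subunit of ribonucleotide reductase, rose from 296, 306 and 281 CPM to 392, 383 and 372 CPM (0.38 ± 0.06, edgeR adjusted p 7.43e-05). Orc1 and Mcm3, which load at replication origins, fell by 0.45 and 0.35. Without homozygous E9.5 replicate 2 or 3, 2 mitotic and 4 replication genes fell.

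Of 22 genes of hypoxia and glycolysis 9 fell and 2 rose, with a median of −0.11 (−0.20 in heterozygous heads), and with total counts only 5 fell and the median was 0.05. Leaving out each homozygous library gave 8 to 11 falls, 1 to 3 rises and a median from −0.28 to 0. Ldha, lactate dehydrogenase, was at 2150, 2350 and 2360 CPM and then at 1570, 1610 and 1410 CPM (−0.58 ± 0.07, edgeR adjusted p 1.06e-05). Pfkl and Pgk1 fell by 0.73 and 0.68, the hexokinase Hk2 by 0.62 and the glucose transporter Slc2a1 by 0.59. Adm and Ndrg1 rose by 1.33 ± 0.33 and 0.44 ± 0.14, and Vegfa (−0.02 ± 0.10) and Bnip3 (0.29 ± 0.16) did not pass the threshold.

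The p53 targets had medians of opposite sign in the 2 genotypes. Of 30 tested genes 15 fell and 5 rose in homozygous heads, with a median of −0.37, while 3 fell and 11 rose in heterozygous heads, with a median of 0.15. For 28 of the 30 (93.3%) the homozygous change was below the heterozygous one, against 46.8% of all genes. The summed level went from 1030 to 1200 CPM to 936 to 977 CPM in homozygous heads and from 695 to 748 CPM to 802 to 828 CPM in heterozygous heads, so that the homozygous sums were above the heterozygous ones at both stages and closer to them at E9.5. With total counts only 6 members fell and the median was −0.20, and 11 to 15 fell when each homozygous library was left out.

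Among the targets, Phlda3, an inhibitor of Akt (chr1:135766119-135769136, plus strand), was at 22.9, 19.8 and 35.5 CPM and then at 19.6, 16.7 and 17.1 CPM in homozygous heads (−0.55 ± 0.18, edgeR adjusted p 0.0314). In heterozygous heads it rose from 4.26, 4.24 and 5.98 CPM to 14.4, 11.5 and 12.5 CPM (1.38 ± 0.21, edgeR adjusted p 0.000261), and the interaction was −1.93 ± 0.28 (edgeR adjusted p 0.0213). Homozygous E9.0 replicate 3 was the highest library, and without it the homozygous change was no longer past the threshold. The same was true with total counts only and without E9.5 replicate 2 or 3, and over the fits without 1 library it ranged from −0.72 to −0.26 with an adjusted p up to 0.164. The interaction was kept in 6 of 12 fits. Ccng1, cyclin G1 (chr11:40748552-40755311, minus strand), was at 102, 95.8 and 94.3 CPM and then at 111, 105 and 99.5 CPM (0.11 ± 0.10, edgeR adjusted p 0.418). It rose from 27.4, 39.0 and 40.9 CPM to 77.9, 80.7 and 70.7 CPM in heterozygous heads, and the interaction of −0.97 ± 0.15 (edgeR adjusted p 0.0213) was kept in 4 of 12 fits.

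Mdm2 was at 70.6, 71.2 and 74.0 CPM and then at 51.8, 57.0 and 57.0 CPM, a fall without overlap (−0.38 ± 0.06, edgeR adjusted p 0.000206). Its heterozygous change was 0.01 and the interaction adjusted p 0.18 with edgeR. Counts per gene do not show its splicing. Cdkn1a, the p21 inhibitor of cyclin-dependent kinases, was at 18.8, 12.9 and 30.9 CPM and then at 13.2, 12.1 and 12.4 CPM, so the stages overlapped (−0.73 ± 0.23, edgeR adjusted p 0.0297), and it rose by 0.96 in heterozygous heads (interaction edgeR adjusted p 0.185). The apoptosis genes Bax, Bbc3, Pmaip1 and Tnfrsf10b fell by 0.40, 0.54, 0.61 and 0.67. Sesn2, Gtse1, Aen and Zmat3 fell by 0.78, 0.55, 0.56 and 0.57, of which the call of Aen was lost with total counts only. The members that rose were Perp (1.57 ± 0.14), which epithelia also express, Rrm2b (0.87 ± 0.12), Ak1 (0.44 ± 0.10), Btg2 (0.34 ± 0.09) and Sesn1 (0.31 ± 0.08), and all 5 also rose in heterozygous heads.

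The spliceosome list, proteins of U5 and of the tri-snRNP that it forms with U4 and U6, fell in 10 of 16 members with a median of −0.22. In heterozygous heads 5 fell and the median was −0.11. None of the 16 passed with total counts only, where the median was −0.05, and none in the test against a 1.5-fold change. Prpf3 was at 110, 105 and 111 CPM and then at 74.9, 76.5 and 75.3 CPM (−0.53 ± 0.05, edgeR adjusted p 1.51e-06), Sart1 fell by 0.44 and Snrnp200, the helicase that Eftud2 contacts, by 0.28. Prpf8 was not past the threshold (−0.20 ± 0.08, edgeR adjusted p 0.0675). In the list of ATF4 stress genes 7 of 18 rose and 3 fell, with a median of −0.03. Trib3 and Ddit3 rose by 1.57 ± 0.30 and 0.93 ± 0.16, from levels of 1.28, 1.83 and 1.08 CPM for Trib3 and 1.88, 2.52 and 2.43 CPM for Ddit3, and Stc2 fell by 1.04. Changes of nearly the same size were seen in heterozygous heads for these 3 genes, at 1.40, 0.82 and −0.97. Without homozygous E9.5 replicate 1, 4 members rose.

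Signalling genes changed gene by gene. Of 19 Wnt genes 5 rose and 6 fell. Wnt7a, a ligand of the neural tube and ectoderm, went from 1.80, 1.43 and 1.01 CPM to 8.84, 8.69 and 6.94 CPM (2.53 ± 0.21, edgeR adjusted p 3.31e-07), and Wnt4, Wnt11, Wnt7b and Wnt8b rose by 1.40 ± 0.14, 1.46 ± 0.21, 0.85 ± 0.17 and 0.64 ± 0.18. The response genes Sp5 and Axin2 fell by 1.39 and 0.58. Sp5 stood at 16.1, 14.5 and 19.3 CPM and then at 6.85, 5.99 and 6.11 CPM, without overlap. Wnt3 rose by 1.23 in heterozygous heads and had a homozygous change of 0.32 ± 0.21 (edgeR adjusted p 0.245, interaction adjusted p 0.36).

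Among 14 FGF genes 8 fell and 3 rose, with a median of −0.30 (0.05 in heterozygous heads), and 2 fell with total counts only, where the median was −0.14. Leaving out each homozygous library gave 6 to 7 falls and 1 to 3 rises. Fgf3, a ligand of the hindbrain and ear, was at 5.79, 7.90 and 8.78 CPM and then at 2.12, 2.61 and 2.03 CPM (−1.73 ± 0.21, edgeR adjusted p 1.44e-05), and the feedback inhibitors Spry2, Spry4 and Spred1 fell by 0.62, 0.53 and 0.34, with the call of Spry4 lost with total counts only. Of 12 retinoic acid genes 2 rose and 3 fell. Aldh1a3, which makes retinoic acid in eye and face, went from 36.2, 33.2 and 37.2 CPM to 62.4, 108 and 96.9 CPM (1.33 ± 0.20, edgeR adjusted p 0.000599), and Aldh1a1 rose by 2.09 ± 0.30. Cyp26c1, which breaks it down, went from 53.7, 51.4 and 60.1 CPM to 40.6, 36.9 and 37.8 CPM (−0.52 ± 0.08, edgeR adjusted p 0.000159). The fall of Cyp26c1 was lost with total counts only.

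The other genes whose stage change differed between genotypes were Trh, Slc19a2, Svop and Cd44. Trh, the gene of thyrotropin-releasing hormone (chr6:92242061-92244650, minus strand), was at 6.77, 8.88 and 7.90 CPM and then at 1.11, 1.26 and 0.713 CPM in homozygous heads (−2.91 ± 0.32, edgeR adjusted p 1.66e-05), but at 8.44, 8.58 and 11.8 CPM and then at 6.83, 14.1 and 7.81 CPM in heterozygous ones (−0.01 ± 0.24). The homozygous fall was kept in all 6 fits without a homozygous library, and the interaction (−2.91 ± 0.41, edgeR adjusted p 0.0213) in 5 of 12. Slc19a2, a thiamine transporter (chr1:164249046-164265385, plus strand), was at 21.6, 19.8 and 30.9 CPM and then at 19.5, 19.2 and 19.7 CPM (−0.31 ± 0.14, edgeR adjusted p 0.094) and rose by 1.01 in heterozygous heads (interaction −1.32 ± 0.21, edgeR adjusted p 0.0213, kept in 6 of 12 fits).

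Svop, a protein of synaptic vesicles (chr5:114026910-114091570, minus strand) that overlaps Usp30, was at 2.03, 1.83 and 3.72 CPM and then at 1.48, 1.32 and 1.31 CPM (−0.87 ± 0.29, edgeR adjusted p 0.0268). It rose by 2.24 in heterozygous heads from 0.294, 0.0536 and 0.301 CPM to 0.945, 0.939 and 1.24 CPM (interaction −3.11 ± 0.53, edgeR adjusted p 0.0377, kept in 2 of 12 fits). As for Phlda3, homozygous E9.0 replicate 3 was the highest library, and the homozygous call was lost without it, without E9.5 replicate 2 or 3 and with total counts only. Cd44, the hyaluronan receptor (chr2:102811141-102901665, minus strand), was the gene whose change was more positive in homozygous heads. It went from 17.4, 15.3 and 14.4 CPM to 19.1, 22.5 and 21.8 CPM (0.43 ± 0.10, edgeR adjusted p 0.00259) and fell from 17.5, 17.9 and 15.2 CPM to 12.6, 12.6 and 12.3 CPM in heterozygous heads (interaction 0.86 ± 0.14, edgeR adjusted p 0.0213, kept in 4 of 12 fits). Each genotype changed without overlap, in opposite directions.

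The remaining large falls were shared with heterozygous heads. Among the 12 largest falls with at least 100 counts on average were, besides Egr2, Sox10, Ret, Pax8 and Snora78, the carbonic anhydrases Car12 (−1.84 ± 0.21) and Car4 (−1.49 ± 0.13), the phospholipase Plcg2 (−1.77 ± 0.12) and the homeobox gene Nkx2-9 (−1.73 ± 0.27). Plcg2 was at 35.2, 42.2 and 45.1 CPM and then at 14.3, 12 and 9.71 CPM (edgeR adjusted p 4.09e-08), and fell by 1.51 in heterozygous heads. All 12 genes also fell in heterozygous heads, by 1.16 to 2.75, and 0 of their interactions passed the threshold.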

How the data were processed

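Raw counts per gene symbol were deposited for 12 libraries, 1 column each. Per the submitters' processing notes, the tools were cutadapt, STAR, featureCounts and MultiQC and the genome was mm10. Their versions, the annotation, the strand setting and the treatment of reads with several matches are not given in the sources used here. All 12 libraries and 4 groups entered 1 edgeR 4.0.16 fit (R 4.3.3, limma 3.58.1) with TMM factors, filterByExpr and robust dispersions, and contrasts gave the stage change in each genotype and their difference. Of 24421 genes, 9611 did not pass the filter. Tests were two-sided with Benjamini-Hochberg adjustment over 14810 genes at 0.05. The standard error is the log2 change divided by the square root of F. A prior count of 2 was used only for log2 CPM, as in the principal components. The log2 changes of edgeR kept its default prior count. The procedure was tested on simulated data. Alternatives used DESeq2 1.42.0, limma-voom, other scalings, filters and thresholds, a replicate block, an offset for GC content and length, thinned counts and each library left out. Gene positions are from the GRCm38 annotation and promoters from RefSeq's GRCm38.p6 table.

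The members and lists were chosen with earlier results of these data known. Genes were named by this rule: Eftud2, the 12 largest rises and 12 largest falls with no overlap and a mean of at least 100 counts over the 6 homozygous libraries, every interaction gene, up to 4 members of each list with the smallest adjusted p (all members where 6 or fewer were tested), and members that changed by more than 2-fold in heterozygous but were not called in homozygous heads. Some genes that this rule or the lists select are not reported here by name.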

Additional observations from a re-analysis of the deposited data

Results flagged for a closer look

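For 10 genes the stage change differed between homozygous and heterozygous heads in the test of the interaction, given here as the homozygous minus the heterozygous log2 change. It was −2.72 for Dlx1, −3.88 for Lhx8, −3.82 for Barx1 and −0.67 for Msx1, members of the ectomesenchyme list. The p53 targets Phlda3 and Ccng1 had −1.93 and −0.97. It was −2.91 for Trh, −1.32 for Slc19a2 and −3.11 for Svop, and 0.86 for Cd44. Dlx1 was called in all 12 fits without 1 library, and the other 9 were lost in at least 2 of the 12 and under the replicate block. Groups of 3 libraries were not searched for outlying values.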

How the results depend on the processing

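Of 2896 rises and 2342 falls in homozygous heads, 744 and 192 were left in a test against a 1.5-fold change. The falls numbered 429 with total counts only, 1620 with total counts without Rn45s and 1422 at an adjusted p under 0.01. Without each homozygous library the rises ranged from 2382 to 2695 and the falls from 1678 to 2064, lowest without E9.5 replicate 3. Heterozygous calls (5216) were 3324 at 0.01, 963 in the 1.5-fold test and 4088 to 4890 without 1 library. The 10 interaction genes became 76 with DESeq2, 5 with limma-voom, 19 with the GC and length offset, 1 at 0.01 and 2 in the 1.5-fold test, and ranged over fits lacking a library from 1, when homozygous E9.5 replicate 3 was left out, to 16, when replicate 2 of the heterozygous E9.5 group was, with 2 without homozygous E9.5 replicate 2 or heterozygous E9.0 replicate 2, 4 without homozygous E9.0 replicate 3, E9.5 replicate 1 or heterozygous E9.5 replicate 1, and 6 without heterozygous E9.0 replicate 1. The cause of these shifts was not tested. Same-numbered libraries did not deviate together (r from −0.167 to 0.004 in homozygous and −0.06 to 0.013 in heterozygous heads), which gave no sign of a pairing by replicate number. Such deviations also hold other differences between libraries, such as sex, so they cannot exclude a shared litter or preparation. The replicate block left 4627 homozygous calls and 1 interaction gene, or 2 with the GC and length offset.

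Homozygous log2 changes of these genes turned in sign. With total counts only, where the median of all genes was 0.18 against 0.01 with TMM, they were 0.11 for Eftud2, 0.10 for Msx1 and Rbp4, 0.06 for Tbx1 and Mrc1 and 0.02 for Birc5, the last called lower with TMM, all below that median and so no turn relative to other genes. Without Rn45s as well, with a median of 0.08, Eftud2 was at 0.01 and Rbp4 at 0. Limma-voom gave −0.01 for Pou4f1 and Tcf21 and 0 for Hoxb8, and thinned counts −0.08 for Pou4f1. Tcf21 was at 0 with RLE or upper quartile factors and DESeq2, and at −0.01 with the GC and length offset, alone or with the replicate block, which gave −0.02 for Cubn. Without 1 library the ranges were −0.11 to 0.11 (Pou4f1), −0.21 to 1.99 (Hoxb8), −0.19 to 0.90 (Myf5), −0.09 to 0.08 (Tcf21), −0.26 to 0.02 (Mrc1), −0.23 to 0.21 (Cubn) and −0.40 to 0.23 (Rbp4). Except for Birc5, none of these genes was called. Of all single-gene results under an alternative, 4333 kept direction and side of the threshold, 245 lost their call, 54 gained one and 31 turned in sign. Genes with 3 or fewer counts over the libraries of a stage are given by their values, since depth limits any fold there.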
